A study of Coturnix japonica with 24 samples.

Results

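The photoperiodic change of the hypothalamus was examined here at the hours when both light schedules had begun their day. Of the 24 arrays of the study, 8 were compared: 4 from quail on long days and 4 from quail on short days, each set made of 2 arrays at zeitgeber time (ZT) 2 h and 2 at ZT 6 h. The birds were male Japanese quail (Coturnix japonica) that had lived for 4 weeks under 6 h of light and 18 h of darkness. At the age of 8 weeks they either stayed on that short-day schedule or were moved to 20 h of light and 4 h of darkness, for 2 weeks in both cases. Each array held RNA of the mediobasal hypothalamus pooled from 3 birds, and the labels name both arrays of a group as biological replicates, so p-values measure the spread between pools. ZT is not defined in the labels and was taken as the hours since lights on. Under that reading both groups were lit at ZT2, and ZT6 fell on the end of the light in short days and inside the light in long days.

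Birds measure day length in the mediobasal hypothalamus, the floor of the brain above the pituitary stalk. Under long days the adjoining pars tuberalis makes thyrotropin, a hormone built of a specific beta subunit (TSHB) and an alpha subunit (CGA) that it shares with the gonadotropins. Thyrotropin acts on its receptor (TSHR) in the ependymal cells and tanycytes lining the third ventricle, where it raises the deiodinase DIO2 and lowers the deiodinase DIO3. DIO2 turns thyroxine into the active triiodothyronine, DIO3 inactivates both hormones, and the resulting local thyroid hormone drives the growth of the gonads.

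The arrays carry chicken probes, so a quail transcript that differs from its probes can read low, and no gene's level is set against another's. Levels are given as intensities scaled so that the arrays share 1 median. A change is the long-day mean less the short-day mean on the log2(intensity + pseudocount) scale, which understates dim genes. The median deposited intensity of the 8 arrays ran from 11.39 to 21.05, and 39.87% to 49.63% of probe sets lay above background, taken as the 95th percentile of 746 probe sets that do not target chicken. Arrays numbered 1 were 1.39 to 1.85 times as bright as those numbered 2 in all 4 groups, so changes within each number are also given. None of 5 array measures differed between photoperiods (lowest exact permutation p = 0.0857, for the ACTB probe sets at the 3′ and 5′ ends, two-sided, where 4 against 4 arrays cannot go below 0.0286). The hypothalamic peptide genes POMC, NPY and AGRP were above background on 24 of 24 arrays, and the pituitary factor POU1F1 was above it on 0 of 24. Of other pituitary markers, CGA was above it on 24 of 24, TSHB on 13 of 24 and prolactin (PRL) on 6 of the 8 morning arrays. POU1F1 alone therefore does not show that pituitary tissue was absent. In tissue of this kind, fewer cells of a type and less RNA per cell cannot be told apart.

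Few transcripts separated the photoperiods in the morning. Of 28829 probe sets tested with time of day as a covariate, 12 passed at an adjusted p of 0.05 in limma, which is 0.0416% of all. In long days 8 of them were higher (0.0277%) and 4 lower (0.0139%), and in all 12 the 4 long-day arrays did not overlap the 4 short-day arrays. Such a separation was present in 971 of all probe sets tested (3.37%), and the test favours it. The unadjusted p was under 0.05 for 1313 probe sets (4.55%), against 1441 that a uniform spread of p-values would give. The 12 stand for 10 named genes and 2 probe sets without a gene symbol. Those higher were TSHB, DIO2, KLF9, FKBP5, TESC, ETNPPL and both unnamed probe sets, and those lower were DIO3, BCL6, COLQ and FABP7.

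**Figure D1:**
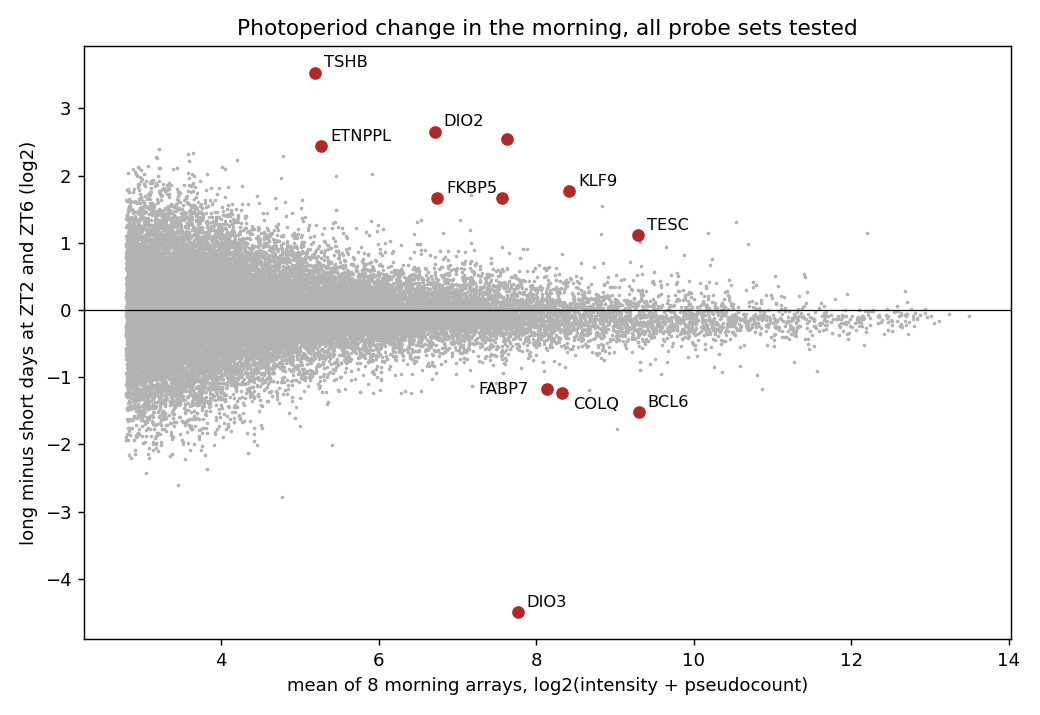
Each point is a probe set, with its mean log2 level over the 8 morning arrays on the x axis and its change, long minus short days, in log2 units on the y axis. Red points are the 12 past the test, 8 above 0 and 4 below, with DIO3 lowest at -4.50 and TSHB highest at 3.53.

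The deiodinases moved in opposite directions. DIO3, which inactivates thyroid hormone, read 1453 and 680.9 on the short-day arrays at ZT2 and 781.2 and 1469 at ZT6, against 58.5, 25.82, 55.72 and 45.35 on the long-day arrays in the same order. All 4 long-day arrays lay more than 10 times below any short-day array. The change was -4.50 ± 0.31 (SE), a 22.6-fold lower level, with an adjusted p of 1.88e-05, and it was -4.19 within arrays numbered 1 and -4.81 within those numbered 2. DIO2, which makes triiodothyronine, read 24.7 and 46.43 at ZT2 and 54.29 and 41.89 at ZT6 in short days, and 229.2, 293.2, 271.5 and 256.6 in long days. The long-day arrays lay close together and the short-day arrays spread over a wider ratio, with the lowest at ZT2. DIO2 rose by 2.66 ± 0.27 (adjusted p = 0.00103), or 6.30-fold, and by 2.71 and 2.60 within the array numbers. A dimmer DIO2 probe set changed by 0.91 in the same direction, but was above background on 0 of 4 arrays in either photoperiod.

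Thyrotropin showed a difference in its specific subunit. TSHB read 2.356 and 8.463 at ZT2 and 11.99 and 24.6 at ZT6 in short days, and 102.1, 116.8, 128.9 and 148.7 in long days. It was above background on 1 of 4 short-day arrays and 4 of 4 long-day arrays, so the short-day level is known mostly as a bound. TSHB rose by 3.53 ± 0.42 (adjusted p = 0.00323), with 4.01 and 3.05 within the array numbers. Its size depends on how low values are treated, and was smallest, at 2.42, when the pseudocount was set to 16. CGA, the shared alpha subunit, read 666.3 and 1023 at ZT2 and 1124 and 1329 at ZT6 in short days, and 872.5, 861.1, 2077 and 1742 in long days. These groups overlapped, and the CGA change of 0.35 ± 0.19 did not pass (adjusted p = 0.984). The receptor gene TSHR changed by -0.46 ± 0.31, EYA3, a coactivator of TSHB in sheep, by 0.51 ± 0.41, and the chromogranin gene CHGA of secretory granules by 0.53 ± 0.19, none of them past the test. In a list of thyrotropin and pars tuberalis genes, 11 of 15 were tested, 1 was called (TSHB) and 7 changes were above 0. The list's median was 0.35, against -0.04 over all 11824 genes. Of all these genes, 9 were called (0.0761%) and 5319 had a change above 0.

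**Figure D2:**
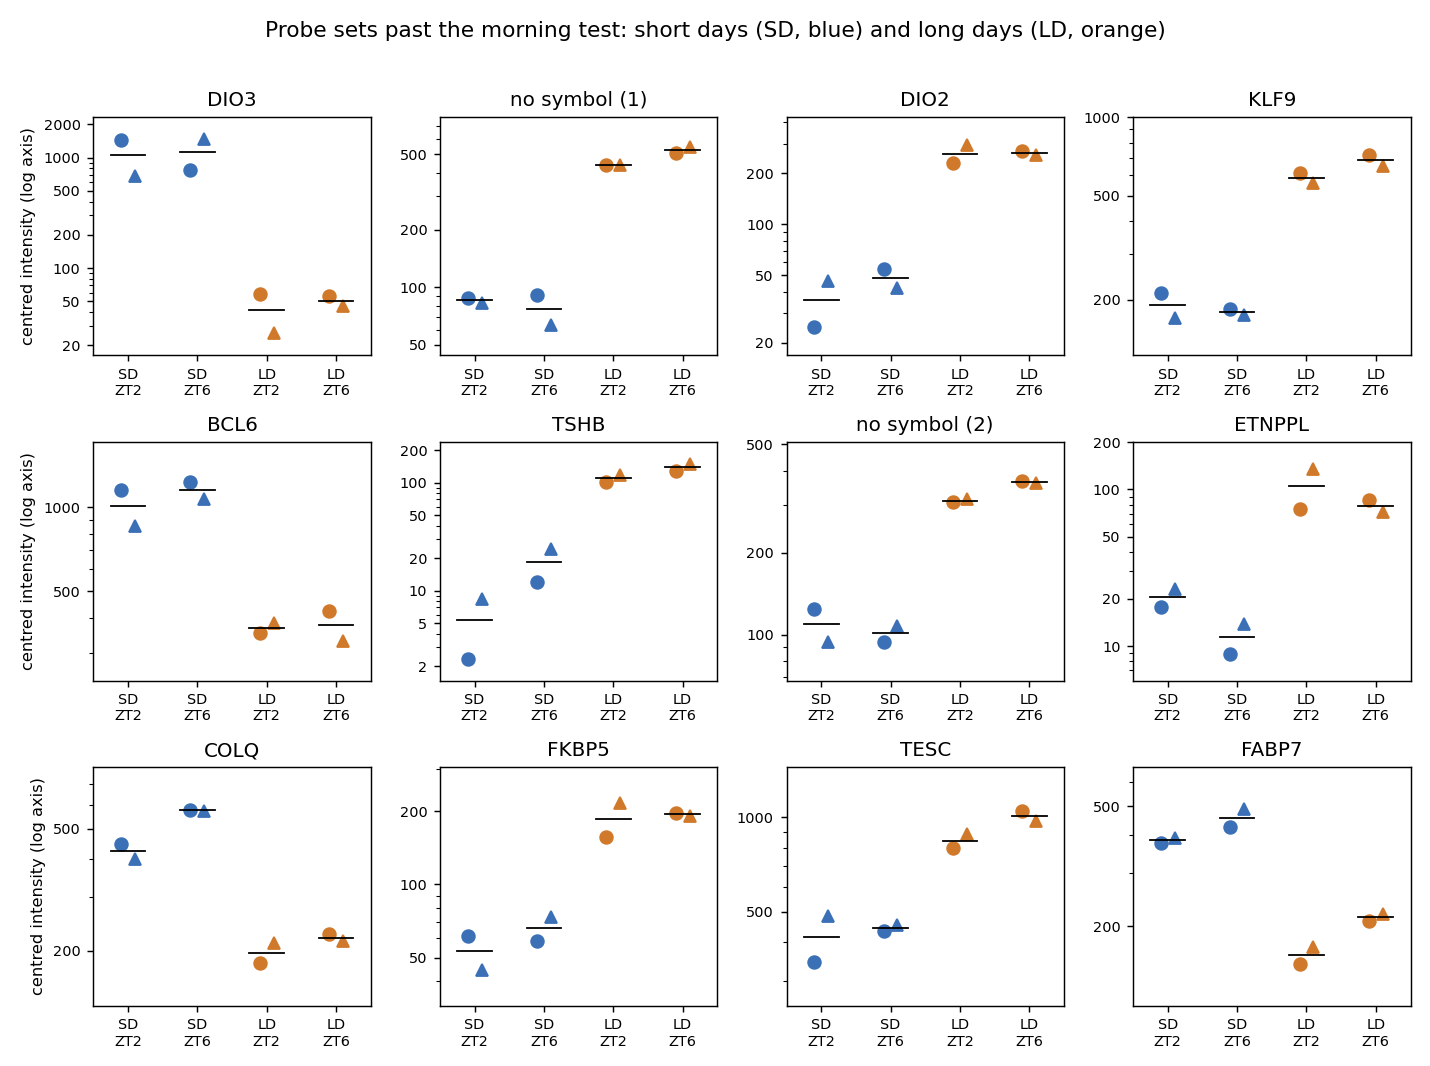
Centred intensity (log axis) of the 12 probe sets past the test in short days (SD, blue) and long days (LD, orange) at ZT2 and ZT6. Circles are arrays numbered 1, triangles arrays numbered 2 and bars their mean; in no panel does a blue point reach an orange one.

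The rest of the thyroid hormone machinery gave no call. Of 21 genes listed for hormone conversion, transport and reception, 14 were tested and DIO2 and DIO3 were the 2 called. Of all 11824 genes 9 were called (0.0761%), and the list was chosen with earlier results of these data known. SLCO1C1, a thyroxine transporter of the brain's barriers, changed by 0.03 ± 0.24, with its sign turning when single arrays were left out. Its 3 other probe sets changed by 0.333 to 0.806, none of them called. The receptor genes THRA (0.92 ± 0.79) and THRB (-0.05 ± 0.83) were above background on 2 and 1 of the 8 arrays, and their changes could not be measured well. The median of the 14 was -0.10.

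KLF9 is a zinc finger factor that thyroid hormone induces in mammals and frogs. Of 8 tested genes in a list of thyroid hormone responsive genes of the brain, it was the 1 called (0.0761% over all genes). It read 211.2 and 170.6 at ZT2 and 183.3 and 174.5 at ZT6 in short days, and 611.1, 558.4, 719.2 and 653.1 in long days. The 2 ranges were narrow and far apart. KLF9 rose by 1.77 ± 0.19 (adjusted p = 0.00106), and by 1.74 and 1.80 within the array numbers. The 7 other tested genes of that list ran from -0.57 (SHH, a secreted patterning signal) to 0.77 (CAMK4, a calcium-dependent kinase, whose other probe set had the opposite sign), and the list's median was -0.16.

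BCL6, a transcriptional repressor, was among the genes that fell. Its short-day arrays read 1154 and 857.3 at ZT2 and 1232 and 1065 at ZT6, and its long-day arrays 353, 383.9, 423.3 and 331.8. It fell by 1.52 ± 0.18 on the log2 scale (adjusted p = 0.00303), and a further probe set of the gene changed by -1.2. FABP7, which binds fatty acids in radial glia and astrocytes, read 379, 392.4, 427.9 and 488.4 in short days and 150.3, 171.3, 208.8 and 220.1 in long days. In both photoperiods the arrays at ZT6 read above those at ZT2. FABP7 changed by -1.17 ± 0.19 (adjusted p = 0.0470) and by -1.18 and -1.17 within the array numbers. COLQ, the collagen tail that anchors acetylcholinesterase, read 444.9, 399.6, 577.5 and 573.7 in short days and 182, 211.8, 227 and 214.5 in long days. It changed by -1.24 ± 0.19 (adjusted p = 0.0277), while its other probe set changed by -0.13.

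FKBP5, a co-chaperone of the glucocorticoid receptor that glucocorticoids induce, was higher in long days. It read 61.56 and 44.5 at ZT2 and 58.46 and 73.32 at ZT6 in short days, and 157, 216, 197.4 and 190.9 in long days. FKBP5 rose by 1.67 ± 0.25 (adjusted p = 0.0277), and its 2 other probe sets changed by 1.2 and 1.99. It was the 1 call among 14 tested genes of a glucocorticoid and fasting list whose median was 0.03. Over all genes 0.0761% were called, and this list too was chosen with earlier results of these data known. TESC, which encodes the calcium-binding protein tescalcin, read 344.2, 482.9, 432.1 and 451.8 in short days and 795.2, 883.1, 1050 and 974 in long days, a rise of 1.11 ± 0.17 (adjusted p = 0.0361). ETNPPL, an enzyme that breaks down phosphoethanolamine, was called by its dimmer probe set, which read 17.66, 23.25, 8.957 and 13.87 in short days and 74.97, 134.8, 85.09 and 71.43 in long days. That change was 2.44 ± 0.35 (adjusted p = 0.0186), with 2 of 4 short-day arrays above background, and a pseudocount of 16 brought it to 1.76. The brighter ETNPPL probe set changed by 2.03 ± 0.39 without passing (adjusted p = 0.193).

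The unnamed probe set with the larger change read 87.83, 82.81, 91.23 and 63.54 in short days and 437.2, 441, 504.8 and 542 in long days. Its change of 2.55 ± 0.22 had the second smallest p of all (adjusted p = 0.00013). The other read 124.8, 94.44, 94.45 and 108.1 against 307.7, 313.4, 365.8 and 358.9, a change of 1.67 ± 0.21 (adjusted p = 0.00601). No gene is assigned to either of them here.

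Leaving out any 1 of the 8 arrays kept the calls of DIO3, DIO2, KLF9, BCL6, TSHB and the more strongly changed unnamed probe set in 8 of 8 refits. COLQ, FKBP5 and FABP7 lost theirs in 8 of 8 refits, TESC in 7, ETNPPL in 4 and the other unnamed probe set in 3, with adjusted p-values up to 0.369. All 12 calls also rest on a variance estimated as a function of brightness: with 1 variance prior for all probe sets 0 passed (1402 at an unadjusted p under 0.05), and DIO3 had an adjusted p of 0.113. Without centring, DIO3, DIO2, TSHB and the same unnamed probe set kept their calls and the other 8 lost them.

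Other genes with small p-values missed the threshold, and their values are given as description. HSPA2, a heat shock protein 70 family member, read 2003 and 914.5 at ZT2 and 879.7 and 532.8 at ZT6 in short days, and 262.1, 418.4, 337.7 and 171.2 in long days. Every short-day array lay above every long-day array, yet the short-day values were widely spread, and the change of -1.76 ± 0.29 had an adjusted p of 0.0624. FAM237A read 40.81, 89.89, 100.9 and 130.5 in short days and 9.122, 18.3, 30.45 and 28.31 in long days. Its change was -2.01 ± 0.36 (adjusted p = 0.118 in limma), with 2 of 4 long-day arrays above background. CCK, the satiety peptide cholecystokinin, read 257.6, 187.2, 500.6 and 206.9 in short days and 881.3, 820.9, 937.2 and 546.7 in long days (1.55 ± 0.28, adjusted p = 0.138). NR1D2, the clock repressor REV-ERB beta, changed by 1.01 ± 0.19 (adjusted p = 0.144), and PTGDS, a prostaglandin D synthase of meninges and choroid plexus, by 0.76 ± 0.16 (adjusted p = 0.301). LOC422926 read 55.7 to 95.84 in short days and 1.244 to 19.86 in long days, where 1 of 4 arrays was above background (-2.78 ± 0.54, adjusted p = 0.193). Its other probe sets disagreed in sign, each above background on at most 1 of 4 arrays in either photoperiod.

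In addition, 37 genes were followed as a set: genes of the photoperiodic pathway, neuropeptides and the clock, together with HSPA2, DNAJA1, FKBP5 and FABP7, and all chosen with earlier results of these data known. On the array 34 were present and 33 were tested, the melatonin receptor gene MTNR1A having been left out as too dim. The 6 called were TSHB, DIO2, DIO3, KLF9, FKBP5 and FABP7, a count that its choice bears on and that is not set against all genes. The 27 not called ran from -1.76 (HSPA2) to 1.55 (CCK). GNRH1, the peptide that drives the gonadotropins, was above background on 5 of 8 arrays and changed by -0.66 ± 0.59. VIP, a releaser of prolactin in birds, changed by -0.08 ± 0.15 and NPVF, the precursor of gonadotropin-inhibitory hormone, by 0.37 ± 0.22.

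The change was then taken at each hour, in a model of 4 group means. At ZT2, 1 probe set passed (0.00347%), DIO3 at -4.62 ± 0.47 (adjusted p = 0.00715). The next smallest p-values belonged to the unnamed probe set with the larger change at 2.34 ± 0.32, TSHB at 4.16 ± 0.58 and DIO2 at 2.88 ± 0.40, each with an adjusted p of 0.0602. Among named genes these were followed by KLF9 at 1.61 ± 0.28 and BCL6 at -1.43 ± 0.27. At ZT6, 2 probe sets passed (0.00694%), DIO3 at -4.37 ± 0.47 (adjusted p = 0.0134) and the same unnamed probe set at 2.76 ± 0.32 (adjusted p = 0.0156). KLF9 stood at 1.93 ± 0.28 (adjusted p = 0.109), DIO2 at 2.43 ± 0.40 and BCL6 at -1.61 ± 0.27 at that hour. All 12 morning calls had the same sign at ZT2 and at ZT6, which a test of their mean favours.

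**Figure D3:**
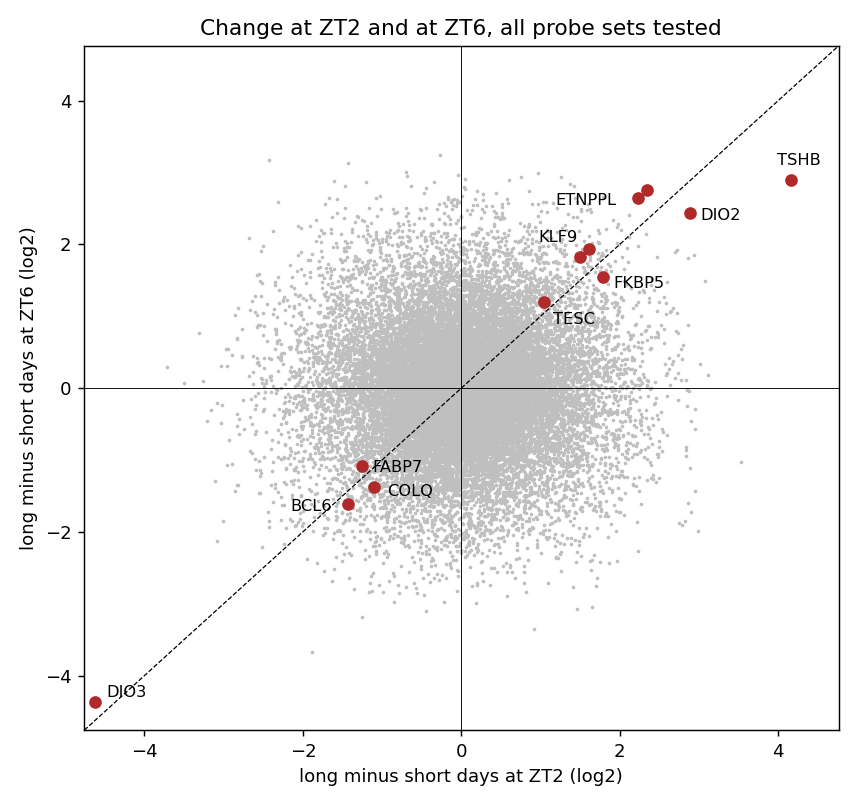
Each point is a probe set, with its change (long minus short days, log2) at ZT2 on the x axis and at ZT6 on the y axis; the dashed line marks equal change. The 12 red points past the morning test lie near that line, from DIO3 at -4.62 and -4.37 to TSHB at 4.16 and 2.90.

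The test of the difference itself, ZT6 minus ZT2, passed for 0 probe sets (897, or 3.11%, at an unadjusted p under 0.05). TSHB, with the widest gap of the 12, differed by -1.26 between the hours, with 1 of 4 short-day arrays above background. Of the genes with the smallest p, STX7, a syntaxin of endosomes, read 44.28 and 80.94 at ZT2 and 274 and 180 at ZT6 in short days, and 237.4, 218.1, 80.26 and 84.6 in long days. Its change turned from 1.90 to -1.41 (difference -3.31 ± 0.56, adjusted p = 0.884). For a second STX7 probe set the same difference was 0.18 ± 0.98. CCN2, a matricellular growth factor, went from -1.33 to 0.55 and BNIP3, a mitophagy receptor, from 1.37 to -0.71. NEK8, a kinase of cilia, went from -2.25 to 1.21 and TSR3, an enzyme of ribosomal RNA maturation, from 0.92 to -3.35, none past the test. Sizes depended on the processing: over the alternatives the NEK8 difference of 3.47 ran from 1.90 to 3.98. That of TSR3, -4.27, ran from -4.89 to -1.98. Between ZT2 and ZT6 within short days 0 probe sets passed (3.24% unadjusted), and within long days 0 (3.23% unadjusted), where CGA changed by 1.13 ± 0.26.

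The remaining 16 arrays, from ZT10 to ZT22, hold other birds. Of the 12 morning calls, 12 changed in the same direction there, 12 with an unadjusted p under 0.05 (5.44% of all probe sets), and 8 passed after adjustment, where 22 of 28829 probe sets (0.0763%) did so. The later change is a mean over ZT10 to ZT22 and need not hold at each hour. FKBP5 changed by 2.05 at ZT10 and 0.04 at ZT18, and BCL6 by -1.54 at ZT10 and -0.36 at ZT22. The DIO3 change ran from -4.72 to -3.48 over these hours. TSHB was above background on 13 of 24 arrays, none of them a later short-day array. Its later short-day levels of 0.8284 to 16.48 are therefore known only as a bound, which limits the size of its later change. DIO3 changed by -4.08 in the later hours, DIO2 by 1.63, KLF9 by 1.88, TSHB by 5.04 and TESC by 1.06, each past the test. The 4 that missed it there were BCL6 at -0.88 (adjusted p = 0.0567), COLQ at -0.83 (0.0722), FABP7 at -0.84 (0.0848) and FKBP5 at 0.84 (0.712). The difference between morning and later change was tested for each, and 0 of 12 passed. For DIO2 that difference was 1.02 ± 0.30, with short-day levels of 24.7 to 54.29 in the morning and 48.7 to 94.16 later. Of the near misses described above, FAM237A (-1.67, adjusted p = 0.00898), CCK (1.24, 0.0013) and LOC422926 (-2.68, 0.0115) passed in the later hours in limma. HSPA2 (0.39), NR1D2 (0.30) and PTGDS (0.40) did not pass there.

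Across all probe sets, 1 differed between the morning and the later hours (0.00347%). CGA changed by 0.35 ± 0.19 in the morning and by 2.60 ± 0.26 later, a difference of -2.24 ± 0.27 (adjusted p = 7.21e-04). In short days CGA read 666.3 to 1329 in the morning, 1022 and 567.2 at ZT10, and then 141.4 to 217 from ZT14 to ZT22. In long days it read 861.1 to 2077 in the morning and 988.4 to 2495 later. The groups overlapped at ZT2 and stood apart at ZT6 (change 0.64 ± 0.26, adjusted p = 1) and at each hour from ZT10 on. With 2 arrays against 2 at an hour, standing apart carries little weight, and its share over all probe sets was not counted. Short-day levels from ZT14 lay below all short-day morning levels, while the long-day ranges of morning and later hours overlapped. The call was lost without centring of the arrays and with 1 variance prior for all probe sets.

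**Figure D4:**
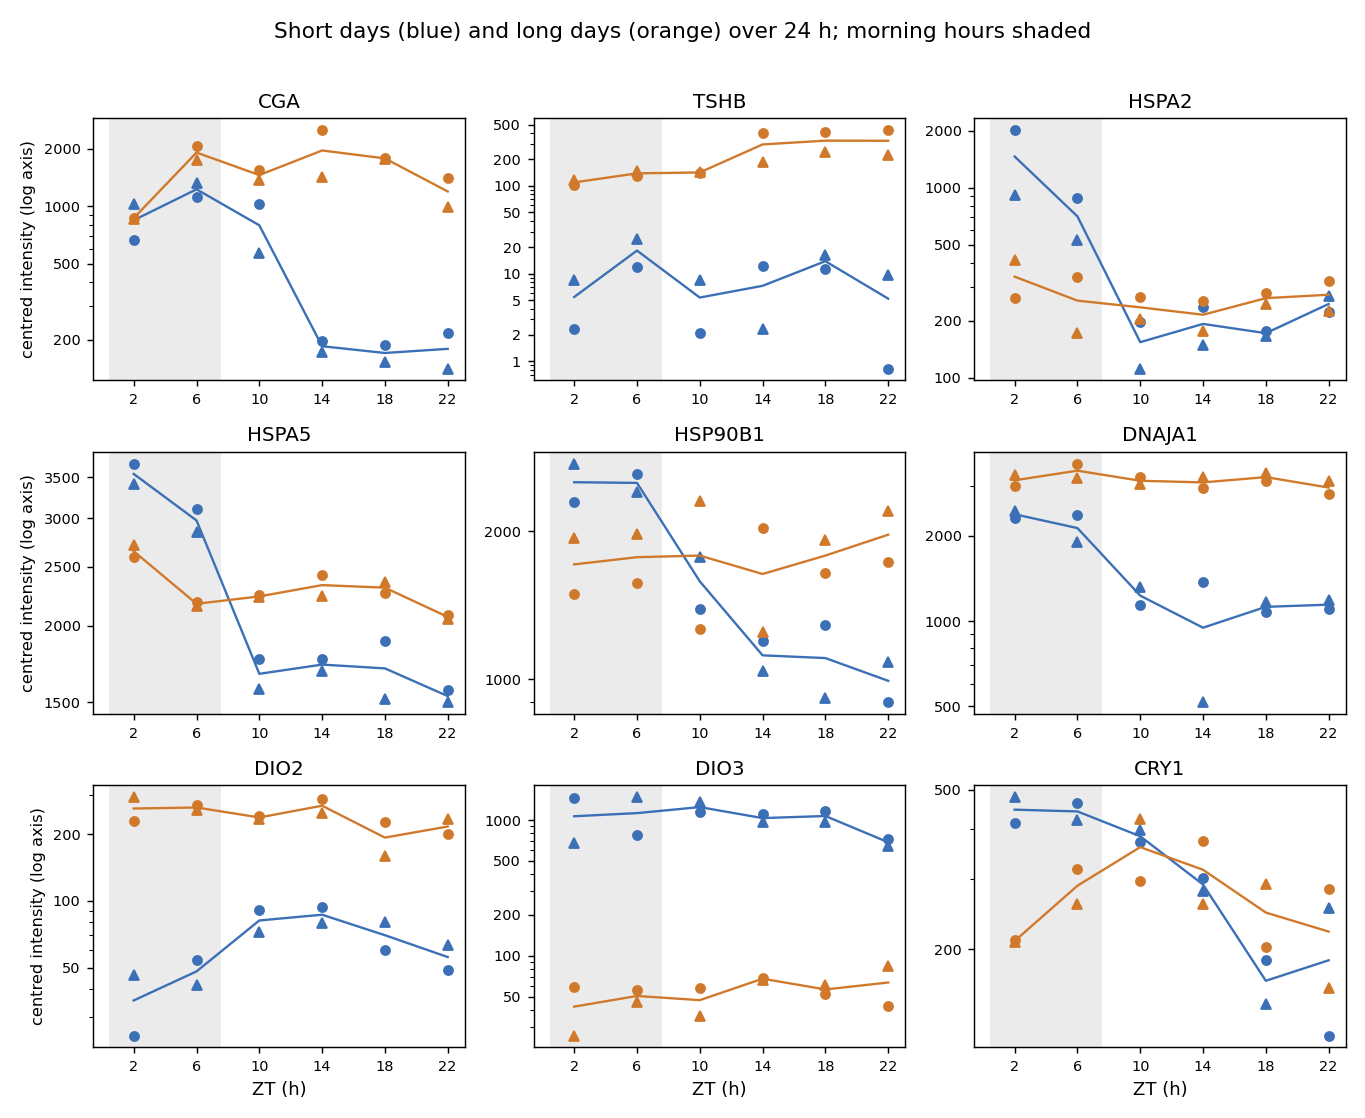
Centred intensity (log axis) by ZT in hours for 9 genes in short days (blue) and long days (orange), with morning hours shaded; circles and triangles are arrays numbered 1 and 2 and lines join group means. CGA, HSPA2, HSPA5, HSP90B1, DNAJA1 and CRY1 read higher in short days in the morning than in short days from ZT14 on, while DIO2 and DIO3 stay apart at all hours.

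Protein folding genes were 3 of the 4 named with the next smallest p-values of that test, and none passed it. HSPA2 differed between morning and later change by -2.16 ± 0.35 (adjusted p = 0.0513), and passed in 11 of 35 alternatives (lowest adjusted p 0.00124), against 3 for HSPA5 and 1 for DNAJA1. Its short-day arrays read 532.8 to 2003 in the morning and 111.8 to 267.7 later, and its long-day arrays 171.2 to 418.4 and 175.6 to 323.1. HSPA5, the main HSP70 of the endoplasmic reticulum, differed by -0.87 ± 0.15 (adjusted p = 0.103), with short-day levels of 2849 to 3684 in the morning and 1500 to 1888 later. Long-day HSPA5 levels were 2158 to 2711 and 2053 to 2426. HSP90B1, its HSP90 counterpart, differed by -1.12 ± 0.24 (adjusted p = 0.664) and DNAJA1, an HSP40 co-chaperone, by -0.99 ± 0.24 (adjusted p = 0.967). In short days the morning level of these 4 genes exceeded the later level by 2.38, 0.97, 1.10 and 1.07 on the log2 scale, and in long days by 0.22, 0.10, -0.02 and 0.08. DNAJA1 alone of the 4 was higher in long days in the morning too (0.54 ± 0.14, adjusted p = 0.915), and its later change was 1.53 (adjusted p = 3.94e-06). GRIN2B, a glutamate receptor subunit that was also among the 5 smallest p-values, was above background on 4 of 24 arrays, too few for its difference of -3.54 ± 0.82 to be read.

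In the list of cytosolic and mitochondrial heat shock genes, 22 of 25 were tested and 0 were called in the morning. At an unadjusted p under 0.05 in limma, 8 were lower in long days (36.4%, against 2.93% of all genes) and 1 higher (4.55%, against 1.91%). This list, like the others, was chosen with earlier results of these data known, so its counts beside those of all genes are description and no test. The 8 were HSPA2, the co-chaperone BAG3 (-0.74), the mitochondrial chaperonin HSPD1 (-0.57), the small heat shock protein HSPB8 (-1.04), the HSP90 activator AHSA1 (-0.44), the adaptor STIP1 (-1.05), HSPA4L (-0.39) and the constitutive HSPA8 (-0.29), and the 1 higher was DNAJA1. Second probe sets of HSPD1 and STIP1 had the opposite sign (0.86 and 0.61). The median was -0.22 at these hours and 0.11 in the later hours, and 10 members had a lower morning than later change at an unadjusted p under 0.05, where 2.21% of all genes did so. The 1 member that differed the other way at that level was RBM3, a cold-inducible RNA-binding protein, whose change was 0.79 ± 0.38 in the morning (1.64 at ZT2 and -0.06 at ZT6) and -0.40 later. Under quantile normalization the morning median shrank to -0.13, and the median of all genes moved from -0.04 to 0.001. With arrays centred on their median, 5319 of all 11824 genes had a change above 0. Of 18 endoplasmic reticulum folding genes, 0 were called, 14 changes were below 0, and the median was -0.19 in the morning (-0.12 under quantile normalization) against 0.13 later. What sets the morning level of chaperones in short days, including any handling or temperature effect on those 4 pools, was not tested.

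**Figure D5:**
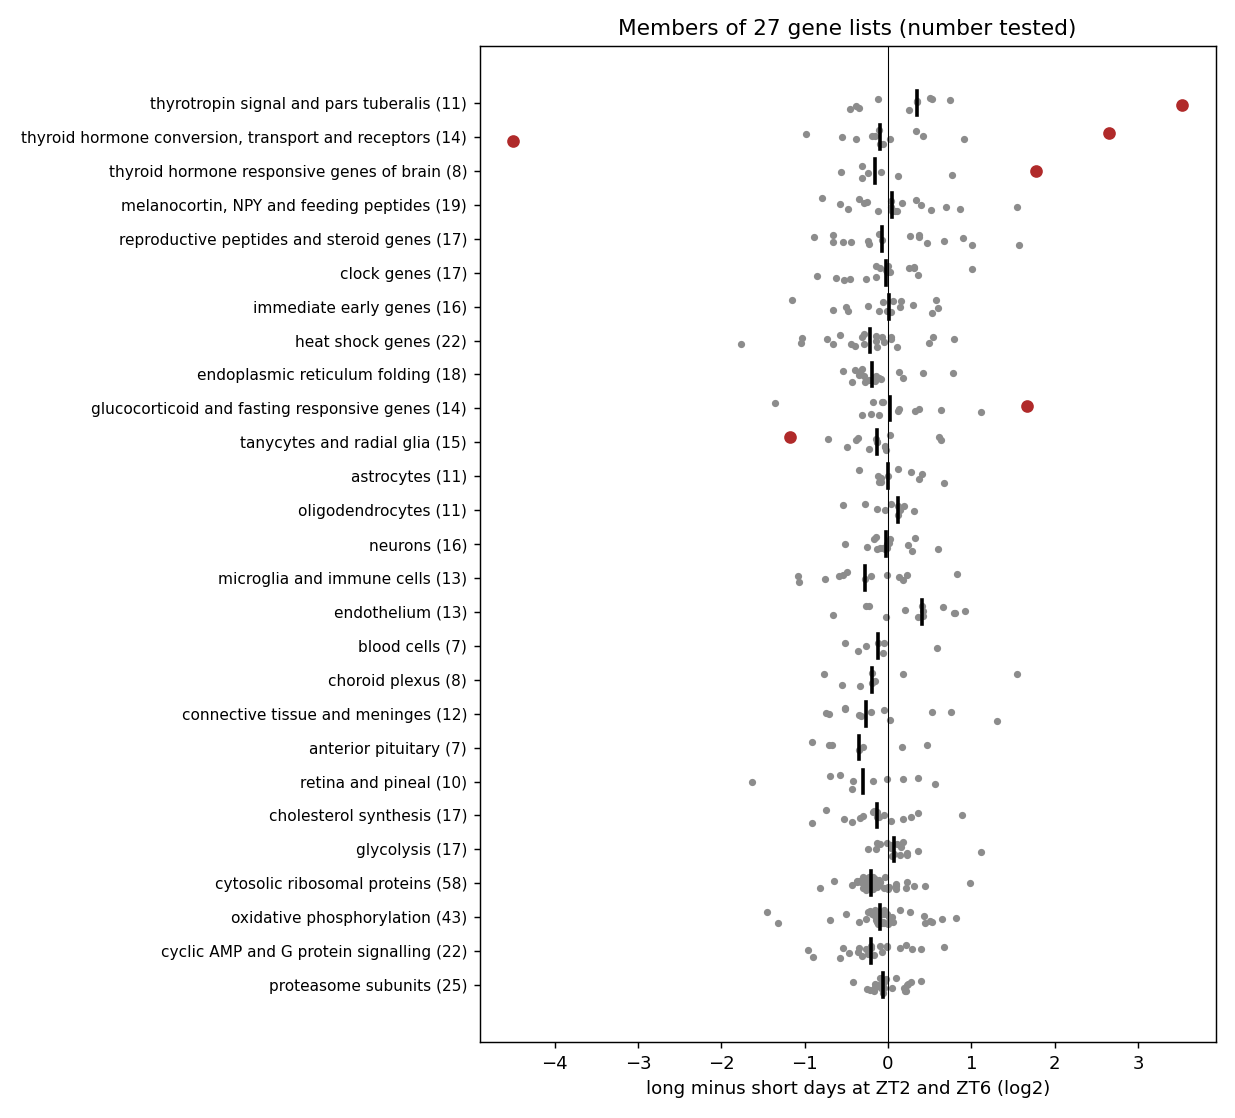
Change in the morning (long minus short days, log2) of each tested member of 27 gene lists, with the number tested in brackets and black bars at list medians. The 6 red points are genes past the test; no other list member passed.

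Of 25 listed clock genes 18 were on the array, 17 passed the brightness filter and were tested, and 0 were called. CRY1, a repressor of the clock, read 413.2 and 478.2 at ZT2 and 462 and 420.5 at ZT6 in short days, and 211, 208.7, 316.3 and 259.9 in long days. The groups did not overlap, and the change of -0.85 ± 0.19 had an adjusted p of 0.519; of its other probe sets, 1 changed by -0.84 and 1 by 0.06. NFIL3, a repressor of D-box genes, changed by -0.63 ± 0.27 and ARNTL, the clock activator, by -0.45 ± 0.30. The median of the clock list was -0.03, and its sign turned under quantile normalization (0.03). In the later hours the change was 0.20 for CRY1, 0.50 for NFIL3 and 0.52 for ARNTL. At an unadjusted p under 0.05 in limma, these 3 had a lower morning than later change, against 2.21% of all genes. NR1D2 (0.30 later) had a higher one, as had 181 of all 11824 genes. None of these differences passed after adjustment. Short-day CRY1 read 122 to 395.8 in the later hours.

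Feeding and reproductive genes held 0 calls among 19 and 17 tested members. POMC, the precursor of melanocyte-stimulating hormone, changed by -0.79 ± 0.23, its short-day arrays reading 378.3, 252.7, 229.7 and 184 and its long-day arrays 142, 179.6, 119.8 and 145.7. NPY, which stimulates feeding, changed by -0.35 ± 0.14 and CRH, the corticotropin-releasing peptide, by 0.86 ± 0.36. CYP19A1, the aromatase that makes oestradiol, read 28.04, 17.46, 28.77 and 35.58 in short days and 62.99, 56.69, 58.04 and 44.96 in long days (1.01 ± 0.34, adjusted p = 0.984). GREB1, an oestrogen-regulated gene, changed by 0.90 ± 0.24 (adjusted p = 0.984), with 1 of its 2 other probe sets of opposite sign. The groups of POMC, NPY, CYP19A1 and GREB1 did not overlap, nor did those of CCK, and none of these morning changes passed. Such a separation was present in 4% of all genes. Naming list members by their smallest p favours it, so that share is no measure for them. In the later hours POMC changed by -1.16 and passed (adjusted p = 0.0021 in limma). The later changes of NPY (-0.26), CYP19A1 (0.94) and GREB1 (1.18) also had the sign of the morning.

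Marker lists of the cells in the tissue held 1 call. Of 15 tanycyte and radial glia genes, FABP7 was the 1 called, 12 changes were below 0 and the median was -0.14. Under quantile normalization 6 of the 15 changes were above 0 and the median shrank to -0.09. Over all 11824 genes, 9 were called (0.0761%) and 5319 changes were above 0. The median of all genes was -0.04, and 0.001 under quantile normalization. Medians were 0.00 for 11 astrocyte genes, 0.12 for 11 oligodendrocyte genes and -0.02 for 16 neuron genes (0.05 under quantile normalization), with 0 called in each. Endothelial genes had a median of 0.40 over 13 members, with 0 called and summed levels of 1120 to 2159 in short days and 2001 to 2574 in long days. The member with the smallest p was EPAS1, a hypoxia-inducible factor of vessels, at 0.67 ± 0.20 (adjusted p = 0.984). EPAS1 alone read 599.3 to 1278 in short days and 1317 to 1711 in long days, so it weighs heavily in the endothelial sum. Of the 13 members, 5 were above background on all 8 arrays. For 7 anterior pituitary genes the median was -0.35, the lowest of the 27 lists, with 5 changes below 0 and 0 called. Their summed level was 1083 to 1194 in short days and 1084 to 1389 in long days, and of the defining members POU1F1 was above background on 0 of the 8 arrays, growth hormone (GH) on 1 and prolactin (PRL) on 6. Medians of microglial and immune, blood, choroid plexus, connective tissue and retinal lists lay from -0.30 to -0.11, each with 0 called. The part of these cells in the calls was not tested.

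Housekeeping, signalling and immediate early gene lists showed small shifts without calls. Of 58 cytosolic ribosomal protein genes, 48 changes were below 0 and the median was -0.20, which shrank to -0.06 under quantile normalization. RPLP0, of the ribosomal stalk, read 1788 and 1798 at ZT2 and 1416 and 1469 at ZT6 in short days, and 919.9, 1016, 1108 and 1061 in long days (-0.65 ± 0.16, adjusted p = 0.623). At an unadjusted p under 0.05, 7 of the 58 were lower (12.1%, against 2.93% of all genes). In the other direction 1 was higher (1.72%, against 1.91%), RPL38 at 0.98. Of all 11824 genes, 5319 changes were above 0, and their median moved from -0.04 to 0.001 under quantile normalization. Medians were -0.09 for 43 oxidative phosphorylation genes, -0.06 for 25 proteasome subunits, 0.07 for 17 glycolysis genes, -0.13 for 17 cholesterol synthesis genes, -0.21 for 22 genes of cyclic AMP and G protein signalling and 0.01 for 16 immediate early genes, with 0 called in each. Quantile normalization turned the sign for oxidative phosphorylation (0.01) and the proteasome (0.08) and moved glycolysis to 0.15 and cyclic AMP signalling to -0.12.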

How the data were processed

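Affymetrix chicken arrays were hybridised with biotin-labelled cRNA (5 ug of total RNA each), per the labels' protocols. The authors deposited 1 linear intensity per probe set and array (0.0275 to 13689.7). GCOS 1.2 is named in the submitters' processing notes. Its scaling is not given in the sources used here, and depth has no counterpart on an array: the number of arrays limits the precision.

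From 38535 probe sets 96 controls were removed. A pseudocount of 1.497 (10% of the median of 14.97) was added, log2 taken and each array centred on its median. The lowest 25% by mean over the 8 arrays were left out, and 28829 were tested in limma 3.58.1 (R 4.3.3; lmFit, eBayes with a mean-variance trend) with ZT as a covariate (5 residual degrees of freedom), then with 4 group means (4), and for morning against later hours with 12 group means on 24 arrays (12). Benjamini-Hochberg adjustment ran over the whole table. Background was set on each array from 746 probe sets without the chicken prefix. Platform annotation gave 1 symbol to 27168 probe sets, several to 177 and none to 11094. A gene was read from its brightest probe set (11824 genes, 9910 with a symbol in the Coturnix japonica 2.1 gene table). Probe sets with _s_at or _a_at names can match several transcripts. No sequence or coordinate is given.

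Named genes were those past the morning test, those passing the other contrasts or their 5 smallest p-values, the fixed set of 37, and from each of 27 lists the members passing plus up to 4 with the smallest p. Other genes were named after their values were seen. Comparisons, genes and lists were chosen with earlier results of these data known. The fits were tested on simulated data. Alternatives were other pseudocounts, scalings, filters, variance models, weights per array, a block for replicate number, each array number alone, all 24 arrays and leaving out each array. A floor at background and the separate fit of 16 later arrays were added after seeing the data. Figures used matplotlib.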

Additional observations from a re-analysis of the deposited data

Results flagged for a closer look

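The change of CGA, long minus short days, was lower in the morning than in the later hours by -2.24 on the log2 scale, and the test of that difference passed (adjusted p = 7.21e-04 in limma). The morning change was 0.35 and the later change 2.60. Short-day CGA levels of 666.3 to 1329 in the morning and 141.4 to 1022 later lie behind it.

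The VIP level on the first long-day array at ZT6 stood apart from the other 3 long-day arrays: 2458 against 1843, 1866 and 1889, a gap of 0.915 of the whole range on the log2 scale. It was 1 of 140 groups of 4 arrays examined in this way, a rule that chance alone meets in about 5% of groups.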

How the results depend on the processing

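Of 12 probe sets past the morning test, the count was 7 with a pseudocount of 16, 4 without centring (3 higher, 1 lower), 0 without the variance trend (1402 at an unadjusted p under 0.05), 28 with arrays numbered 1 alone, 45 with values under background raised to it (an alternative chosen after seeing the data), and 6 to 10 without 1 array, with 6 without the second long-day array at ZT2 or at ZT6 and 7 without the first at ZT6. At ZT2 the count of 1 became 2 (pseudocount 16, no centring, robust variance, all 24 arrays), 4 (no filter, array weights), 6 (quantile normalization) and 0 (no trend, 1413 unadjusted), and 0 to 10 without 1 array, with 10 without the first short-day array at ZT2 and 0 without the second long-day array at ZT2 or either at ZT6. At ZT6 the count of 2 became 1 (pseudocount 16, no centring), 4 (quantile, all 24 arrays) and 0 (no trend, 1349 unadjusted), and 0 to 9 without 1 array, with 9 without the first short-day array at ZT6, 0 without the second short-day or second long-day array at ZT6 and 1 without either long-day array at ZT2. The difference between ZT6 and ZT2 had 0 to 4 without 1 array, 3 and 4 without the first short-day array at ZT2 and at ZT6. Between morning and later hours the count of 1 became 2 (a smaller pseudocount, quantile, no filter, a stricter filter, array weights), 3 (robust variance) and 0 (no centring, 597 unadjusted; no trend, 1289), and 1 to 4 without 1 array, with 4 without the first short-day array at ZT2, 3 without the first at ZT14, and 2 without the second short-day array at ZT2, the first at ZT6 or ZT10, the first long-day array at ZT6 or the second at ZT14. The cause of these shifts was not tested.

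The replicate number taken as a block gave 24 probe sets in the morning, 7 at ZT2, 6 at ZT6 and 4 between morning and later hours. Deviations of same-numbered arrays correlated at 0.044 to 0.1 in 6 of 6 group pairs, so that each array correlated best with its own number, a hint from the data and not from the design. Not all exceeded 0.1, so the numbers were not taken to pair the arrays.

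Over 102 gene results and 2495 alternatives, 2325 kept direction and, where a test was run, side of the threshold, 90 lost the call, 63 gained one and 17 reversed. Medians over all probe sets of a gene carry no p-value and were judged by direction alone. HSPA2 was among those gained in the morning, for example under quantile normalization and with array weights. Reversed values were 0.096 (quantile) and 0.128 (numbered 1) for VIP, 0.025 (numbered 2) for ARNTL, 0.133 (background floor) for GNRH1, and for SLCO1C1 -0.182 (numbered 2) and -0.190 to 0.236 without 1 array. Taken as the median of all its probe sets, a gene reversed to 0.015 for GNAQ, 0.142 for HSPD1, 0.032 for RPL12, 0.280 for FN1, 0.101 for COL1A2, 0.326 for PROM1 and 0.061 for RELN. Dim probe sets, short-day TSHB among them, are measured close to background, which limits their changes.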
